A study of Mus musculus with 2 samples.

Results

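The genes described here make, take up, bind and sense retinoids, the signalling forms of vitamin A. They are the retinaldehyde dehydrogenase genes Aldh1a1, Aldh1a2 and Aldh1a3, the retinol uptake receptor gene Stra6, the cellular retinoic acid-binding protein genes Crabp1 and Crabp2, and the retinoic acid receptor genes Rara, Rarb and Rarg. Every probe set annotated to 1 of these genes and to no other was taken, which gave 12 probe sets for the 9 genes, where 18193 genes in all could be read in this way. Aldh1a3 had 3 probe sets, Rarg had 2 and the other 7 genes had 1 each.

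Per the labels, both samples were RNA of bEnd3, an established BALB/c mouse line of endothelial cells from cerebral cortex microvessels, transformed with polyoma middle T antigen. The sample labelled Smad4-siRNA was RNA of cells infected with retrovirus that delivers an siRNA against Smad4, and the Control-siRNA sample was RNA of cells given a control siRNA in the same way. Both populations were selected with puromycin and grown in medium with 15% fetal calf serum, and 2 infections were pooled. Each group had 1 Affymetrix array, without replicates. No test between the groups could be made, and having so few arrays limits how precise any value is. The question is what Smad4, the shared partner of the Smads that TGF-β and BMP receptors activate, does for transcript levels in brain endothelium.

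Cells take up retinol from the blood carrier RBP4, in some tissues through STRA6, and oxidise it to retinaldehyde. The ALDH1A enzymes then make retinoic acid, which binds nuclear receptors (RARs) that sit on DNA as pairs with retinoid X receptors. CRABP2 carries retinoic acid to the receptors, CRABP1 is linked to its metabolism, and CYP26 enzymes break it down. In the developing brain, retinoic acid from the meninges is known to act on neural and vascular cells.

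The label of the Smad4-siRNA sample was not borne out by the Smad4 transcript. On a log2 scale, its 3 probe sets gave ratios of 0.25, 0.58 and 0.35 after normalization (-0.12, 0.21 and -0.07 as deposited). Xist, the X-inactivation RNA, had a signal of 4476 in the sample labelled Smad4-siRNA and of 20.7 in the Control-siRNA sample. The Y-linked gene Eif2s3y was the reverse, at 0.349 in the sample labelled Smad4-siRNA and 324 in the Control-siRNA sample. Whether the samples hold the same cells apart from the siRNA was not tested, and every ratio compares the samples as they are labelled. Signals are quantile-normalized MAS5 intensities on a linear scale except where stated. The median of an array, 22.8, served as the floor, and a gene was called measured where it reached the floor in at least 1 sample. Probe sets differ in brightness, so the signals of different genes are not ranked against each other. Log2 ratios give the sample labelled Smad4-siRNA minus the Control-siRNA sample, and "higher" and "lower" state the direction in the sample labelled Smad4-siRNA, not a response to loss of Smad4. The median log2 ratio over all measured genes was -0.11 after normalization and -0.23 for values as deposited.

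Markers of cell types also differed. Of 18 measured endothelial markers, 17 were at least 2-fold lower, and their summed signal was 1099.9 in the sample labelled Smad4-siRNA against 25498 in the Control-siRNA sample. In the sample labelled Smad4-siRNA, 10 of the 18 lay below the floor in all their probe sets. These were Pecam1, Cldn5, Emcn, Esam, Erg, Tek, Tie1, Sox17, Sox18 and Robo4. The other 8 stayed above it there in their brightest probe sets. They were Cdh5 (44.2), Kdr (26.1), Nos3 (28.0), Cd34 (95.7), Egfl7 (247), Ramp2 (31.6), Flt1 (69.3) and Eng (508). Eng was at 748 in the Control-siRNA sample, within 2-fold, but the log2 ratio of its dimmer probe set was -1.90. For Flt1 the log2 ratio was -1.22 in the brightest probe set and from -0.54 to 0.14 in the dimmer ones. Of 9 measured fibroblast markers, 8 were at least 2-fold higher, with a summed signal of 26476 in the sample labelled Smad4-siRNA against 993 in the Control-siRNA sample. The exception, S100a4, made up most of the latter sum, at 893 in the sample labelled Smad4-siRNA and 837 in the Control-siRNA sample. There, Col1a1, Col1a2, Col3a1, Dcn, Fbln1, Postn and Mgp were below the floor by their brightest probe sets, whereas a dimmer probe set of Fbln1 was above it in both samples (28.1 in the sample labelled Smad4-siRNA and 32.1 in the Control-siRNA sample). The endothelial marker Vwf and the fibroblast markers Lum and Thy1 were below it in both samples. Epithelial, microglia and leukocyte, astrocyte and neuron markers were mostly below the floor in both samples. Epcam and Slc1a3 were above it in the sample labelled Smad4-siRNA alone. For Epcam this held in the brightest probe set there (81.7) and not in the other (4.19). Cd68 was lower in the sample labelled Smad4-siRNA (35.2, against 820.3 in the Control-siRNA sample). Csf1r was above the floor in both samples (23.2 in the sample labelled Smad4-siRNA and 28.2 in the Control-siRNA sample).

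Among the retinoid genes, Crabp2 and Rarb had higher signal in the sample labelled Smad4-siRNA, and no gene was at least 2-fold lower. Of the 9 genes, 5 were measured, 3 of them in both samples and 2 in the sample labelled Smad4-siRNA only. Of all 18193 genes, 11581 were measured, 9479 of them in both samples. The sample labelled Smad4-siRNA alone measured 1093, and the Control-siRNA sample alone 1009. Crabp2 and Rarb were at least 2-fold higher, 2 of 5, where 16% of 11581 measured genes were. The number at least 2-fold lower was 0 of 5, where 15.8% of measured genes were. Aldh1a2, Rarg and Rara lay between these limits. The median over the 5 genes, with a side below the floor set to the floor, was a log2 ratio of 0.67. With so few genes these counts describe the genes and no more. Aldh1a1, Aldh1a3, Stra6 and Crabp1 were below the floor in both samples, so no fold is given for them.

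**Figure D1:**
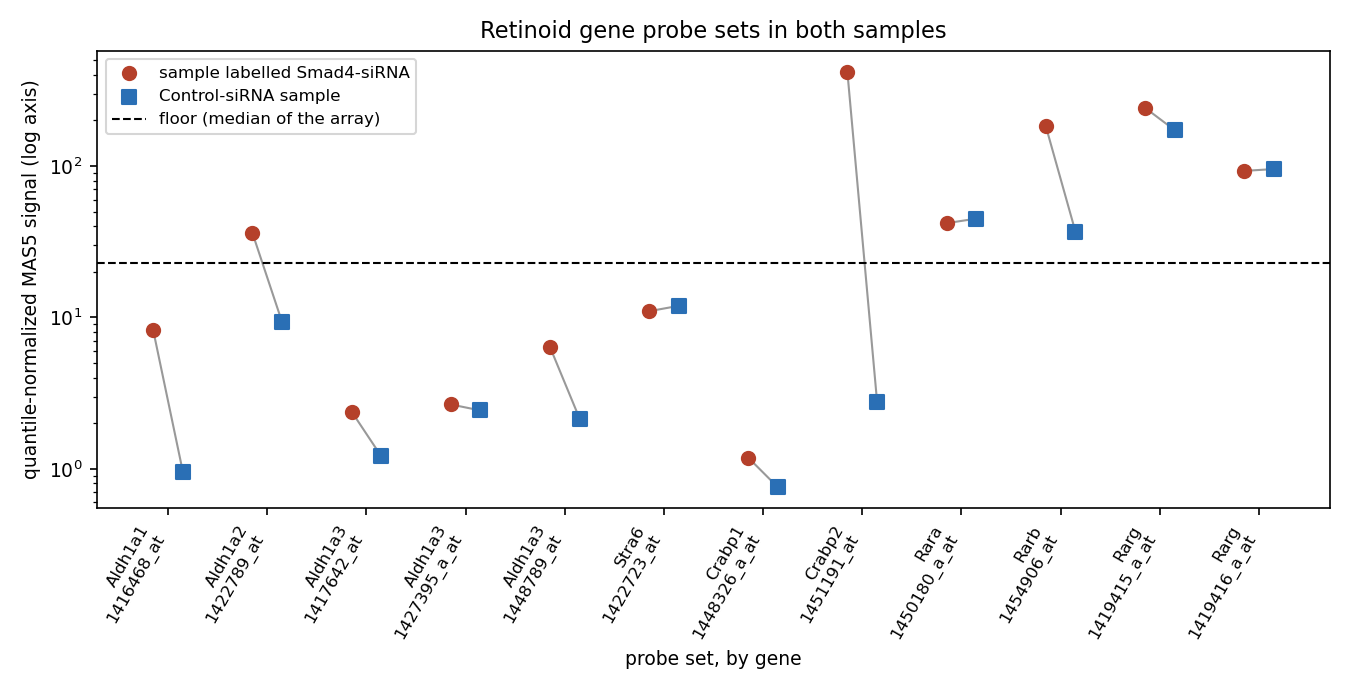
Quantile-normalized MAS5 signal (log axis) of each of the 12 probe sets, with circles for the sample labelled Smad4-siRNA, squares for the Control-siRNA sample and a dashed line at the floor of 22.8. Crabp2 and Aldh1a2 cross the floor between the samples, Rarb differs above it, and 6 probe sets lie below it in both samples.

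Retinoic acid synthesis was represented by 1 gene above the floor. Aldh1a2, which encodes the main retinoic acid-making enzyme of early embryos and of the meninges, had a signal of 36.2 in the sample labelled Smad4-siRNA, against 9.29 in the Control-siRNA sample, where it was under the floor. It was thus at least 1.59-fold higher, a log2 bound of 0.67. As deposited, its signal was 39.0 in the sample labelled Smad4-siRNA and 8.78 in the Control-siRNA sample. The bound is under 2-fold because the higher signal itself lies close to the floor, so that the real difference may be larger than the bound.

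Aldh1a1, which encodes an enzyme of liver, eye and many stem cells, had signals of 8.21 in the sample labelled Smad4-siRNA and 0.947 in the Control-siRNA sample. The 3 probe sets of Aldh1a3, the enzyme of nasal and eye development, had signals of 2.39, 2.66 and 6.40 in the sample labelled Smad4-siRNA and of 1.21, 2.43 and 2.14 in the Control-siRNA sample. All of these were below the floor in both samples, a range in which values have no order here. Aldh1a7, the close relative of Aldh1a1 that lies next to it in the RefSeq gene order, had a signal of 43.6 in the sample labelled Smad4-siRNA and of 9.52 in the Control-siRNA sample, at least 1.91-fold higher.

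The uptake receptor gene was not detected above the floor. Stra6, which encodes the membrane receptor for RBP4-bound retinol and is known from the retinal pigment epithelium and the blood-brain barrier, had signals of 10.98 in the sample labelled Smad4-siRNA and 11.9 in the Control-siRNA sample. As deposited, it was at 11.6 in the sample labelled Smad4-siRNA and 11.2 in the Control-siRNA sample. Both samples thus placed Stra6 at similar values under the floor, where this array type cannot show whether a low transcript level differed.

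The binding protein genes had unlike patterns. Crabp2, whose protein delivers retinoic acid to the nuclear receptors, had a signal of 421 in the sample labelled Smad4-siRNA and of 2.77 in the Control-siRNA sample, where it was below the floor. It was at least 18.5-fold higher, a log2 bound of 4.21 that is set by the floor. Its signals as deposited were 370 in the sample labelled Smad4-siRNA and 2.58 in the Control-siRNA sample. Crabp1, the gene of the related protein, had signals of 1.19 in the sample labelled Smad4-siRNA and 0.754 in the Control-siRNA sample, both below the floor. Each of these genes rested on 1 probe set, so the spread between probe sets could not be seen for them.

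The high Crabp2 signal stood beside higher fibroblast markers. CRABP2 and ALDH1A2 are known from fibroblasts of the meninges. The list of 10 further markers of those cells was chosen with earlier results of these data known. Of the 10, 6 were measured and 5 were at least 2-fold higher, where 1849 of all 18193 genes were. All but 1 of these 5 counted as measured only through the sample labelled Smad4-siRNA, so the count is a description and no test. The summed signal over the list was 6391 in the sample labelled Smad4-siRNA against 104 in the Control-siRNA sample. Foxc1, Foxd1, Tbx18, Zic1 and Ogn reached 1278, 2229, 412, 423 and 2016 in the sample labelled Smad4-siRNA, and all but Foxc1 were below the floor in the Control-siRNA sample. The adult meningeal transporter genes Slc6a13, Slc22a6 and Slc47a1, and Dpp4, were below the floor in both samples, and Ptgds was at 11.7 in the sample labelled Smad4-siRNA and 24.0 in the Control-siRNA sample. Of 5 measured pericyte and smooth muscle markers, 4 were at least 2-fold higher (Acta2, Tagln, Pdgfrb and Cspg4), with a summed signal of 3017 in the sample labelled Smad4-siRNA against 103 in the Control-siRNA sample. Acta2 (1634) and Pdgfrb (968) made up most of the sum in the sample labelled Smad4-siRNA. Des was at 13.7 in the sample labelled Smad4-siRNA and 36.2 in the Control-siRNA sample. Rgs5, Kcnj8, Abcc9, Myh11 and Cnn1 were below the floor in both samples. The part of these cell type markers in the values of Crabp2, Aldh1a2 and Rarb was not tested. In bulk RNA, fewer cells of a type and less RNA per cell cannot be told apart.

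The receptor genes differed from one another. Rarb, which encodes RARβ, had a signal of 185 in the sample labelled Smad4-siRNA and of 36.9 in the Control-siRNA sample. It was 5.00-fold higher, a log2 ratio of 2.32 both after normalization and as deposited (172 in the sample labelled Smad4-siRNA and 34.3 in the Control-siRNA sample). This is the only one of the 9 genes that was above the floor in both samples and at least 2-fold different, and 615 of 11581 measured genes (5.31%) had a higher ratio or bound.

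Rarg, which encodes RARγ, known from skin and cartilage, had signals of 243 and 92.8 in its 2 probe sets in the sample labelled Smad4-siRNA, against 173 and 95.4 in the Control-siRNA sample. Their log2 ratios were 0.49 and -0.04 after normalization and 0.26 and -0.05 as deposited. The probe sets thus differed in sign, and the gap between them was close to the SD of 0.47 between probe sets of 1 gene, pooled over 4546 genes. Rara, which encodes the widely expressed RARα, had signals of 41.9 in the sample labelled Smad4-siRNA and 44.9 in the Control-siRNA sample. On the log2 scale the ratio was -0.10 after normalization and 0.09 as deposited, so its direction turned with the scaling, and the size stayed within the spread between probe sets in both. That spread holds no error between arrays or cultures.

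**Figure D2:**
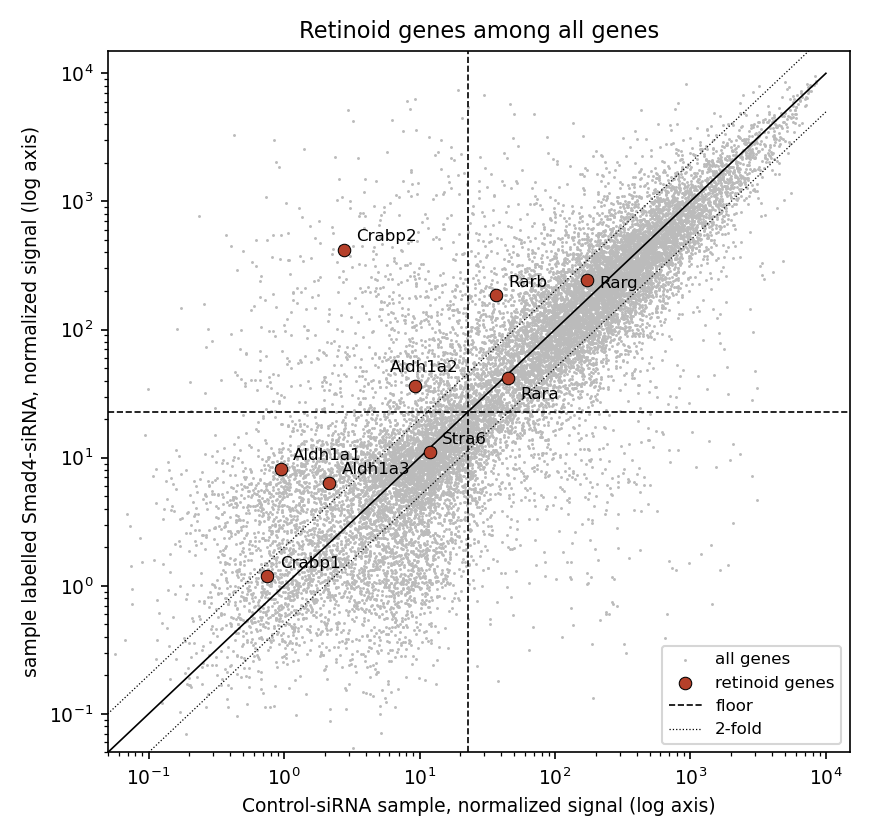
Normalized signal in the sample labelled Smad4-siRNA (vertical log axis) against the Control-siRNA sample (horizontal log axis) for all 18193 genes in grey, with the 9 retinoid genes in colour at their brightest probe set, dashed lines at the floor and dotted lines at 2-fold. Crabp2 (log2 bound 4.21) lies far above the diagonal, Rarb (log2 ratio 2.32) above the 2-fold line, and Rara and Rarg close to the diagonal.

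Rarb is itself a textbook target of retinoic acid, through a retinoic acid response element in 1 of its promoters. The element is a DR5, a direct repeat of 6-base half-sites with 5 bases between them. Its sequence is shown because Rarb was the receptor gene that differed. In the RefSeq tables (build GRCm38.p6), 1 window of 250 bases before to 50 bases after a transcript start is listed for Rarb. The 250 bases before the start, at chr14:16575477-16575726 on the minus strand, read 5′ to 3′ as follows, with the DR5 in capitals.
Rarb: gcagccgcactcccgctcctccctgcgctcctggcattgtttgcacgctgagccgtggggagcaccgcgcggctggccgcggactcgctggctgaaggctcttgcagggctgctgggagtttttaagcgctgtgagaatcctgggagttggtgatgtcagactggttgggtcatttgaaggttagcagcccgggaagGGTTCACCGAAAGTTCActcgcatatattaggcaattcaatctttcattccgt

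The search used DR5 with its usual variable half-sites, on both strands, and the element began 53 bases before the start. It was present in 32 of 32851 promoter windows of the same length, or 0.0974%. Of 15 windows listed for 7 of the 9 genes, that of Rarb alone held a DR5, and Aldh1a3 and Crabp2 had no window in the table. Among 69 windows of 54 further retinoid pathway genes, 1 held a DR5, that of Cyp26a1, at chr19:37697776-37697792. The elements are set side by side with the half-sites in capitals. That of Cyp26a1 lies on the minus strand and is read there.
Rarb: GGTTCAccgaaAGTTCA
Cyp26a1: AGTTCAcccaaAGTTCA
Of the genes that hold these like elements, Rarb was 5.00-fold higher. Cyp26a1 encodes a retinoic acid-degrading enzyme and is strongly induced by retinoic acid in many cells. It was at 3.08 in the sample labelled Smad4-siRNA and 6.57 in the Control-siRNA sample. Both values are below the floor, so no fold is given for Cyp26a1 to set beside that of Rarb. A match to these letters is a description of the sequence, and which Rarb promoter was used in these cells was not measured.

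Other genes of the retinoid pathway went both ways. Of 75 genes on 6 lists, 68 had a probe set annotated to no other gene and 47 were measured. The remaining 7 were not analysed here. Among the 47, differences of at least 2-fold were found for 17, 9 higher and 8 lower, and the median log2 ratio was 0.21. The shares were 19.1% higher and 17.02% lower, next to the 16% and 15.8% of all measured genes.

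Genes of retinol carriage and storage were mostly below the floor. Of 13 with a probe set, 9 were below it in both samples, among them Ttr, Lrat (the retinol-esterifying enzyme), Rbp2 and Rbp7. So were 6612 of all 18193 genes. Rbp4, the secreted retinol carrier, had a signal of 61.8 in the sample labelled Smad4-siRNA and of 9.41 in the Control-siRNA sample, at least 2.72-fold higher. Scarb1, a lipoprotein receptor that also takes up carotenoids, and Dgat1, which can esterify retinol, were within 2-fold, with log2 ratios of 0.45 and 0.43. Lpl had a log2 bound of 0.21 by its brightest probe set. Its dimmer probe set gave a log2 bound of 1.26, at 54.5 in the sample labelled Smad4-siRNA and 1.63 in the Control-siRNA sample. By brightest probe sets, 1 of the 4 measured genes (25%) reached 2-fold higher, next to 16% of all measured genes. The number that reached 2-fold lower was 0, next to 15.8%.

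Enzymes that exchange retinol and retinaldehyde differed in both directions, with 2 higher, 4 lower and 8 between among 14 measured. These are shares of 14.3% higher and 28.6% lower, next to the 16% and 15.8% of all measured genes. Dhrs3, which reduces retinaldehyde back to retinol, had a signal of 32.3 in the sample labelled Smad4-siRNA and of 111 in the Control-siRNA sample, 3.43-fold lower. Rdh13, a mitochondrial retinol dehydrogenase family member, was 2.19-fold lower, at 74.2 in the sample labelled Smad4-siRNA and 162 in the Control-siRNA sample. Rdh9 and Rdh5 were at least 2.41-fold and 2.11-fold lower, as both were below the floor in the sample labelled Smad4-siRNA.

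On the higher side, Adh7, a retinol-oxidising alcohol dehydrogenase known from epithelia, was at 79.8 in the sample labelled Smad4-siRNA and 25.03 in the Control-siRNA sample, 3.19-fold higher by its brightest probe set. Retsat, which saturates retinol, was 2.49-fold higher, with 0.82 and 1.32 as the log2 ratios of its probe sets. Rdh10, which makes the retinaldehyde that ALDH1A2 uses in the embryo, was within 2-fold, at 157 in the sample labelled Smad4-siRNA and 189.8 in the Control-siRNA sample.

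Clearance of retinoic acid was measured through Cyp26b1 alone. This gene, the CYP26 form of skeleton, limb and brain, had a signal of 611 in the sample labelled Smad4-siRNA and of 152 in the Control-siRNA sample. It was 4.01-fold higher, a log2 ratio of 2.004 after normalization and 1.73 as deposited. Cyp26b1 rests on 1 probe set, as Crabp2 and Rarb do.

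Among receptor partners, 3 of 8 measured genes (37.5%) were at least 2-fold higher and 1 (12.5%) was lower. Of all measured genes, 16% were higher and 15.8% lower by that much. Rxra, the gene of the common RAR partner RXRα, was 3.62-fold higher by its brightest probe set (273 in the sample labelled Smad4-siRNA and 75.4 in the Control-siRNA sample), but another probe set had a log2 ratio of 0.32. Rxrb stood at 0.23 on the log2 scale (-0.12 as deposited), and Rxrg was below the floor in both samples. Fabp5, whose protein carries retinoic acid to the alternative receptor PPARδ, was 2.37-fold lower, at 1224 in the sample labelled Smad4-siRNA and 2896 in the Control-siRNA sample. Nr2f1, an orphan receptor that competes for retinoid response elements, was 2.01-fold higher, with a log2 ratio of 0.98 as deposited, which is under 2-fold. Rora, an orphan receptor related to the RARs that is not a receptor for retinoic acid, was 14.5-fold higher by its brightest probe set, and the log2 ratios of its 4 probe sets above the floor in both samples ran from -0.06 to 3.86. Nr2f6, an orphan receptor of the same family as Nr2f1, was within 2-fold (-0.34).

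By the brightest probe set of each gene, corepressors and coactivators were mostly within 2-fold, in 9 of 10 measured genes. So were 7906 of all 11581 measured genes. The exception, Tbl1xr1, a subunit of a nuclear receptor corepressor complex, was 2.14-fold higher in the brightest of its probe sets (log2 ratio 0.79 as deposited). Its 4 probe sets above the floor in both samples had log2 ratios from 0.07 to 1.82. Of its others, a probe set at 20.5 in the sample labelled Smad4-siRNA and 43.8 in the Control-siRNA sample was at least 1.92-fold lower. Another, at 47.3 in the sample labelled Smad4-siRNA and 16.3 in the Control-siRNA sample, was at least 2.07-fold higher. Hdac3 and Tbl1x of the same complex had log2 ratios of 0.90 and 0.73, the coactivator gene Ncoa2 of 0.61, and the coactivator genes Med1 and Crebbp of -0.74 and -0.71. For Med1, the log2 ratios of the 4 probe sets above the floor in both samples ran from -2.01 to -0.10. As deposited, Tbl1xr1 was within 2-fold, whereas both Med1 and Crebbp, at a log2 ratio of -1.08 each, were at least 2-fold lower.

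Genes known to be induced by retinoic acid in other cells were not uniformly higher, unlike Rarb, which is also known to be induced by it. Among 13 measured genes, 2 reached 2-fold higher, 4 reached 2-fold lower and 7 did neither, with a median log2 ratio of -0.16. The shares were 15.4% higher and 30.8% lower, next to the 16% and 15.8% of all measured genes. Cyp26b1, given above, and Rarres1 were higher. Rarres1 had a signal of 57.6 in the sample labelled Smad4-siRNA and of 1.31 in the Control-siRNA sample, at least 2.53-fold higher.

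The lower genes of that list included Dhrs3, given above, and 3 others. Gprc5a, an orphan receptor named for its induction by retinoic acid, was 9.80-fold lower, at 48.5 in the sample labelled Smad4-siRNA and 475 in the Control-siRNA sample. The homeobox gene Hoxb4 was at 6.28, below the floor, in the sample labelled Smad4-siRNA and 154 in the Control-siRNA sample, at least 6.76-fold lower. Meis2, a homeobox cofactor, was 5.64-fold lower, with log2 ratios from -2.50 to -2.02 over its 3 probe sets above the floor in both samples.

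**Figure D3:**
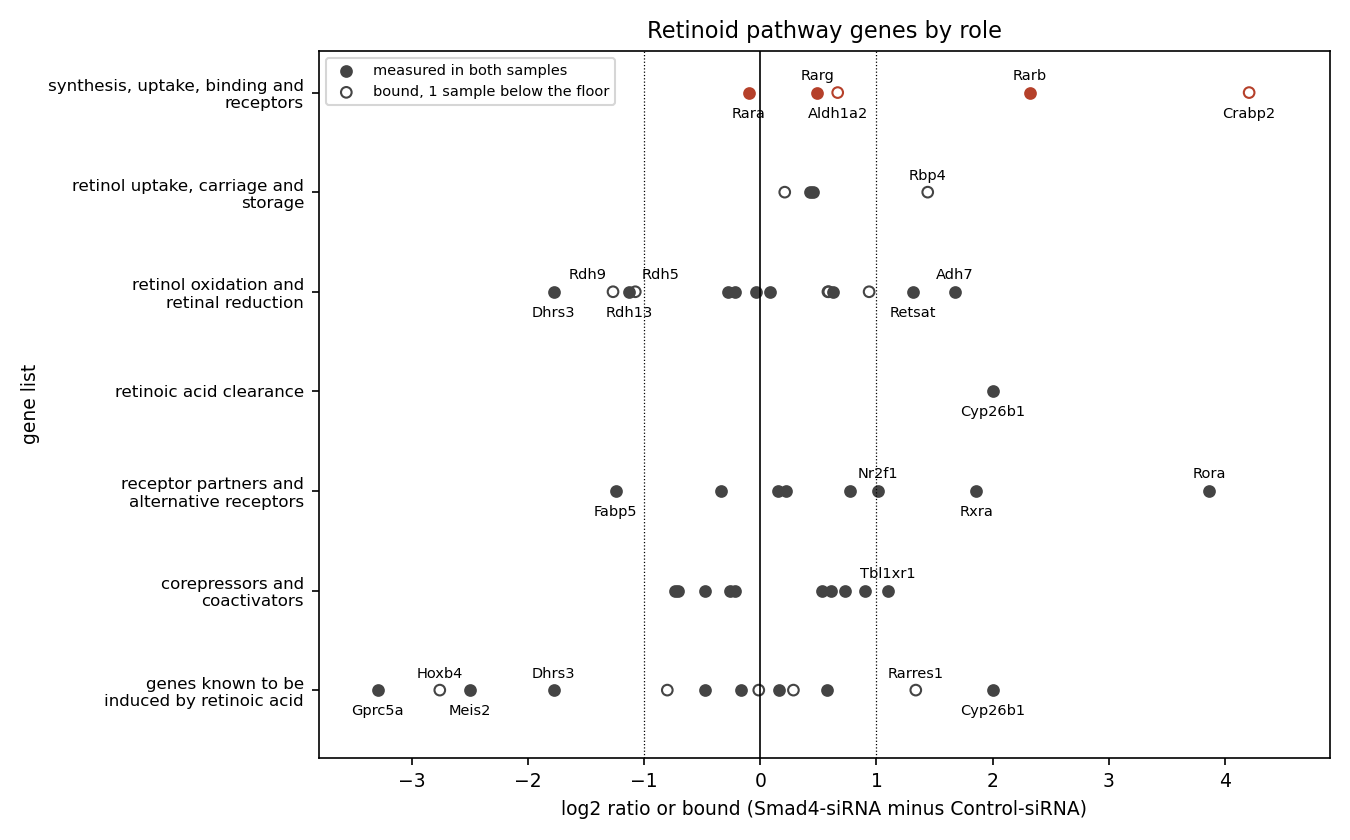
Log2 ratio, or log2 bound for genes below the floor in 1 sample (open circles), of each measured gene by role, with the 5 measured of the 9 retinoid genes in the top row and dotted lines at 2-fold. Crabp2 (4.21), Rarb (2.32) and Rora (3.86) lie farthest to the right, and Gprc5a (-3.29), Hoxb4 (-2.76) and Meis2 (-2.50) farthest to the left.

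The 9 genes were also followed through 8 other ways of processing the same values. Rarb had a log2 ratio between 2.16 and 2.45 in 7 of them and a bound of 0.54 with the floor at the 75th percentile, where its value in the Control-siRNA sample no longer counted as measured. The lower floor and the probe set settings could not alter the ratio of Rarb, which has a single, unsuffixed probe set. The bound for Crabp2 ran from 1.73 to 6.23 because it follows the floor. Aldh1a2 was at least 2-fold higher in 3 of the settings, with a log2 bound of 1.02 for centred ratios, a ratio of 1.96 with the floor at the 25th percentile and 1.49 with a pseudocount. Rarg and Rara were within 2-fold in every setting that gave them a value.

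**Figure D4:**
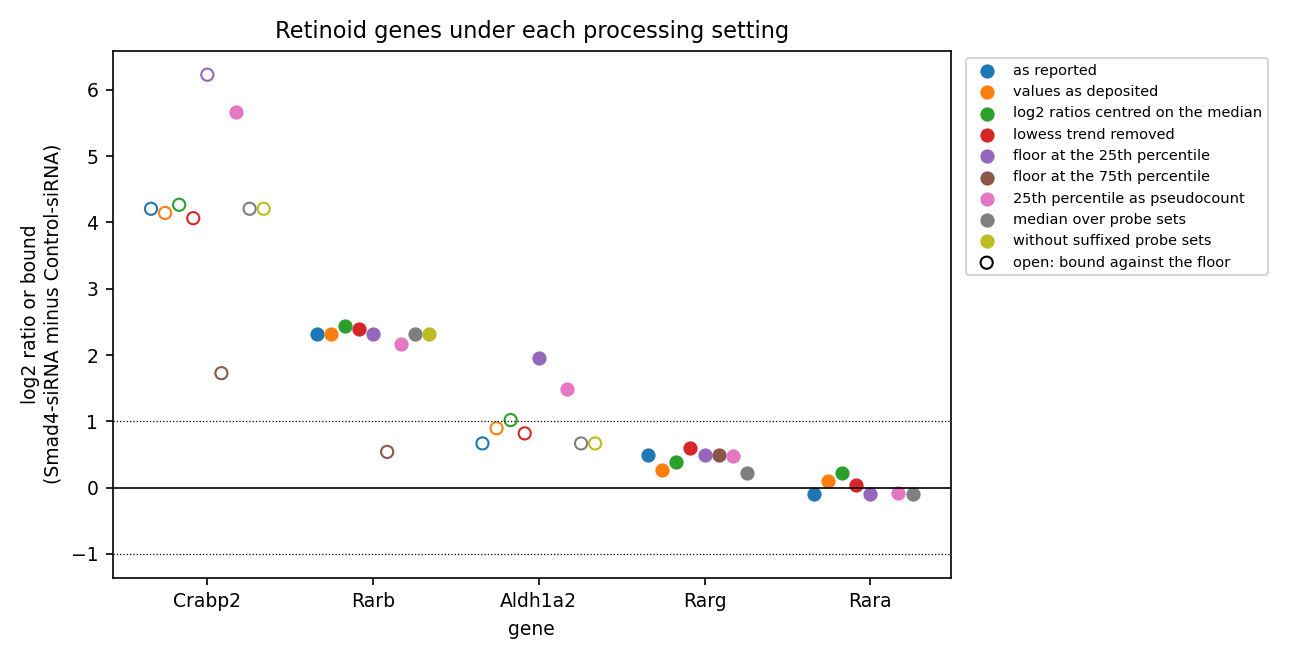
Log2 ratio (filled) or log2 bound against the floor (open) of the 5 measured retinoid genes, with a colour for the values as reported and for each of 8 alternatives, a solid line at 0 and dotted lines at 2-fold. Crabp2 and Rarb stay above 0 throughout, Aldh1a2 lies on either side of the 2-fold line, and Rara lies on either side of 0.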

How the data were processed

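The deposited table holds 1 linear signal intensity per probe set and sample, which the authors computed with MAS5 according to the submitters' processing notes. For the MAS5 version, scaling target and detection calls, the sources used here give nothing. Labelled cRNA was made from 6 µg of total RNA, per the labels' protocols. Groups came from the sample titles. Of 45101 probe sets, 64 control probe sets were left out. Genes came from the supplied platform annotation, with symbols updated against RefSeq by Entrez identifier: 34945 probe sets had 1 gene, 932 several and 9160 none. The 2% trimmed mean was -17.2% away in the sample labelled Smad4-siRNA from that of the Control-siRNA sample, so log2 signals were quantile normalized. Where a gene had several probe sets, the one brightest on average (log2) stood for it. A side below the floor (the array median) was set to it, giving a bound ("at least N-fold").

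The members, lists and settings were chosen with earlier results of these data known. All 9 members were named, with up to 6 genes per pathway list that were at least 2-fold different or at least 4 times the floor in 1 sample, by size of the difference, beside marker genes, Smad4 and the nearest measured neighbours. Named after seeing their values, and not by this rule, were Xist, Eif2s3y, Rdh10, Cyp26a1, Lpl, and the genes named as below the floor. With 2 arrays no likeness of pattern between genes could be ranked. Alternatives were values as deposited, centring on the median, removal of a lowess trend (fraction 0.3), floors at the 25th and 75th percentile, the 25th percentile as pseudocount, the median over probe sets, and leaving out probe sets with suffixes. The gene comparison and the motif search were tested on simulated data. Python 3.11.15, numpy 2.4.6, pandas 2.3.3 and statsmodels 0.14.6 were used.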

Additional observations from a re-analysis of the deposited data

How the results depend on the processing

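With 1 array per group no replicate could be left out, and no paired analysis was possible because each group had 1 array. The counts and medians for the 9 genes and the pathway lists gave 48 values under the alternatives. Of these, 42 were within 1.5 times the reported count, or within the SD between probe sets for a median, and 6 were not. Among the 42, the number of the 9 genes at least 2-fold lower was 0 in all 8 alternatives, as reported. Crabp2 and Rarb have 1 unsuffixed probe set each, so the probe set settings could not drop them from the higher count. With the floor at the 75th percentile, 1 of the 9 genes was at least 2-fold higher (Crabp2) in place of 2, and the pathway lists had 4 higher and 3 lower in place of 9 and 8, from 33 measured genes in place of 47. With the floor at the 25th percentile, 13 pathway genes were lower in place of 8, from 58 measured genes. As many, 13, were higher there, which is within 1.5 times the reported 9. The median over the 9 genes was 1.49 with the pseudocount and 2.32 without suffixed probe sets, which left 3 of them measured (Aldh1a2, Crabp2 and Rarb) since Rara and Rarg have suffixed probe sets only. With the floor at the 75th percentile Aldh1a2 and Rara had no value. Of 36 values for single genes, 30 lay within the SD between probe sets of the reported value and 6 did not, all in Aldh1a2, Crabp2 or Rarb and all under another floor or the pseudocount. Some of the 30 could not move. Aldh1a2, Crabp2, Rara and Rarb have 1 probe set each, so the median over probe sets returns the reported value. Leaving out suffixed probe sets cannot change Aldh1a2, Crabp2 or Rarb. A lower floor cannot change the ratio of a gene above the floor in both samples. Neither Crabp2 nor Rarb turned its sign in any setting, but a bound such as that of Crabp2 cannot turn its sign. For all measured genes the higher ones made up 50.3% of those at least 2-fold different after quantile normalization, 43.4% as deposited, 50.7% after centring and 57.0% after removal of the lowess trend. Signals near the floor limit Aldh1a2 and Rara. Aldh1a1, Aldh1a3 and Stra6 had a value only with the floor at the 25th percentile, a log2 bound of 0.55, a log2 bound of 0.19 and a log2 ratio of -0.12 in that order, and Crabp1 had none in any setting.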

Other observations

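The nearest measured genes on either side of each of the 9 retinoid genes in the RefSeq gene order were also examined. Of these 18 neighbours, 3 were at least 2-fold higher, 1 was at least 2-fold lower and 14 lay between, where 16% of all measured genes were higher and 15.8% lower by that much. The neighbours of Crabp2 were Isg20l2, with a log2 ratio of 0.08, and Nes, the gene of the intermediate filament nestin, which was 6.47-fold lower (30.3 in the sample labelled Smad4-siRNA and 196 in the Control-siRNA sample). Rarb lay between Top2b, with a log2 ratio of 0.39, and the thyroid hormone receptor gene Thrb, which was at 17.1 in the sample labelled Smad4-siRNA and 24.5 in the Control-siRNA sample. Aldh1a2 lay between Adam10 and Polr2m, with log2 ratios of 0.02 and -0.09. The higher neighbours were Anxa1 beside Aldh1a1 (2.56-fold), Top2a beside Rara (7.53-fold) and Islr beside Stra6 (at least 39.0-fold, at 889 in the sample labelled Smad4-siRNA and 3.06 in the Control-siRNA sample).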
